A study of Arabidopsis thaliana with 6 samples.

Results

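The 8 genes described here form the transcriptional core of the male germline of Arabidopsis thaliana and a few of its best known outputs, and were chosen by name: DUO1 (AT3G60460), DUO3 (AT1G64570), DAZ1 (AT2G17180), DAZ2 (AT4G35280), DAZ3 (AT4G35700), MGH3, also called HTR10 (AT1G19890), PCR11 (AT1G68610) and MAPKKK20 (AT3G50310). All 8 were found among the 33602 genes counted in each library. RNA was sequenced from sorted pollen of the Col accession, with 3 paps1-3 and 3 wild-type libraries, lettered A to C in each group. Both groups came from plants of the genotype PAPS1 pLat52::RFP / paps1-3, in which a red fluorescent protein under a pollen promoter is written with the normal allele of PAPS1 (a nuclear poly(A) polymerase), and grains were separated by that fluorescence, so that both kinds of grain come from plants of that genotype. The labels do not say which fraction glowed or how pure the sort was. Plants received no treatment that the labels name, nothing used here gives their age or how many were pooled, and the library letters are not said to mark separate plants, so p-values measure the spread between libraries, which may be technical. The LAT52 promoter is known to act in the vegetative cell, the large cell of the grain that makes the pollen tube, and all RNA of a grain was pooled, sperm and vegetative RNA together.

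In pollen development an asymmetric division gives a vegetative cell and a generative cell, and the generative cell divides once more to give the pair of sperm cells. DUO1, a MYB transcription factor of the germline, is needed for that last division and switches on a set of sperm genes by binding MYB sites in their promoters. Its targets include the zinc finger repressors DAZ1 and DAZ2, which act through TOPLESS co-repressors and promote germ cell division, their relative DAZ3, the sperm histone H3 variant MGH3, PCR11 (a member of the cadmium resistance protein family) and the kinase gene MAPKKK20. DUO3 is a conserved MYB-related regulator that acts partly in parallel with DUO1.

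The upstream sequences of 4 of these genes are shown because they divide these DUO1 targets by whether they hold a 6-letter word with the core of a MYB site. Each is the 250 bases before the annotated start of the transcript, in RefSeq's annotation of assembly TAIR10.1, written 5′ to 3′ on the gene's strand with matches to AACCGT or AACCGC, searched on both strands, in capitals. The counts were made on TAIR10, so these coordinates belong to the later release. They are chr1:6904713-6904962 for MGH3 (plus strand), chr4:16923069-16923318 for DAZ3 (plus), chr1:25763209-25763458 for PCR11 (plus) and chr3:18649522-18649771 for MAPKKK20 (minus).
MGH3: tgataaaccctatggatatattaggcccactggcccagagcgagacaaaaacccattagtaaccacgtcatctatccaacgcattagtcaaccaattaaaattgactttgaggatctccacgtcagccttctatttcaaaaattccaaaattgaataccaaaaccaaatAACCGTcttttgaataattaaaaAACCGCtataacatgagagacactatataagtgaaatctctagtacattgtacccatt
DAZ3: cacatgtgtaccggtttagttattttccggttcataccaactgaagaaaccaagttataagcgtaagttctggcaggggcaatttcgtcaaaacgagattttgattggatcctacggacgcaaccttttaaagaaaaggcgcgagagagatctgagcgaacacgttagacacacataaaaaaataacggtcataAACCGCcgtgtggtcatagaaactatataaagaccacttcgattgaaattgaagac
PCR11: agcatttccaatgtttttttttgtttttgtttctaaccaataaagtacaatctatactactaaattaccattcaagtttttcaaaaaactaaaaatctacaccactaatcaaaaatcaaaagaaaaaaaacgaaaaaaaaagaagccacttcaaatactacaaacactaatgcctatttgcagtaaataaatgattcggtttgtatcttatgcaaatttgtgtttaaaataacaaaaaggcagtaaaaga
MAPKKK20: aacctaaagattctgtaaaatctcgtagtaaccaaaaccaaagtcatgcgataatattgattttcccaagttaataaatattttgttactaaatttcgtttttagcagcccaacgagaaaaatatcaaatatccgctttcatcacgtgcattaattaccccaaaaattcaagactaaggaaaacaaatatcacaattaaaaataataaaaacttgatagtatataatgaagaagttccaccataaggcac

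MGH3 held 2 matches, starting 81 and 58 bases before the transcript start, and DAZ3 held 1, starting at 56. PCR11 and MAPKKK20 held none in this window. DUO1 itself had 2, at 21 and 11 bases, and DUO3, DAZ1 and DAZ2 had 1 each, at 231, 87 and 159 bases. Thus 6 of the 8 windows held a match, whereas 10.4% of the 27438 protein-coding genes did in windows of the same length. Of 8 other genes known as activated by DUO1, 5 held a match, and of 6 other sperm genes 2 did. With the shorter core AACCG, which both longer words contain, 7 of the 8 windows matched, PCR11 among them and MAPKKK20 not, against 23.2% of all windows. A match is a string of letters, not a bound site, and its absence from this window says nothing about binding elsewhere.

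**Figure D1:**
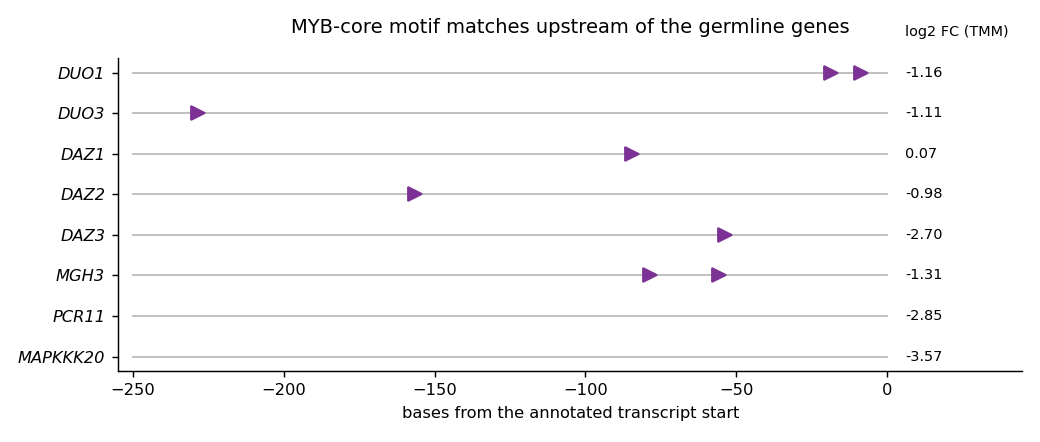
Positions of AACCGT or AACCGC (triangles pointing along the strand of the match) in the 250 bases before the transcript start of each gene, with the log2 fold change in paps1-3 printed at the right. Matches lie in 6 of the 8 windows. PCR11 and MAPKKK20, without a match, were at −2.85 and −3.57, and DAZ3, with 1 match, was at −2.70. A link between matches and fold changes was not tested.

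The DUO1 message is also a known target of the microRNA miR159, whose sequence and site are shown because similar sites occur in MYB genes of pollen and anther described further on. The mature miR159a (chr1:27713234-27713254, minus strand, TAIR10.1) has its seed, bases 2 to 8, in capitals, and in the best matching stretch of each message the capitals mark bases that pair with it.
miR159a: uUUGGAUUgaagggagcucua
DUO1 site: TgGAGCTCCaTTCgATCCAAA
MYB33 site: TgGAGCTCCCTTCAtTCCAAt
MYB101 site: TAGAGCTtCCTTCAAaCCAAA

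The DUO1 site lies in the coding sequence, at chr3:22343375-22343395 on the minus strand, and pairs at 18 of 21 bases. The site of MYB33, at chr5:1839579-1839599 on the plus strand, also pairs at 18, and that of MYB101, at chr2:13783168-13783188 on the minus strand, at 19. Mature microRNA was not measured in these libraries. The 3 MIR159 precursor genes had between 0 and 3 counts in any library and could not be tested.

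The libraries held 19861313 to 41176647 gene counts. Genes with any count numbered 24587 to 30343 in the paps1-3 libraries and 16869 to 19668 in those of wild type. The part of this difference in the levels of scarce genes was not tested. Levels are given in counts normalised to library size (CPM, counts per 1000000) on library sizes scaled by TMM, a method that takes most genes as unchanged, and fold changes are paps1-3 over wild type by edgeR's quasi-likelihood test, called at a Benjamini-Hochberg adjusted p below 0.05 over 14273 genes. The scaling matters here: TMM multiplied library sizes by 1.47 to 1.68 in paps1-3 but by 0.613 to 0.673 in wild type, and with library totals alone the log2 fold changes were higher by a median of 1.25. Both scalings are therefore printed for each gene. Mitochondrial genes took 3.27% ± 0.85 of paps1-3 counts, against 0.0405% ± 0.0102 in the other group (mean ± SD over 3 libraries). Markers of tissues that pollen could carry along were scarce: 3 of 9 tapetum genes and 0 of 6 leaf genes had enough counts to test, and the tapetum gene A9 and the leaf gene LHCB1.2 were at 0 in every library. Summed, the tapetum list was at 1.48 to 3.13 CPM in paps1-3 and 2.69 to 3.17 in wild type, and the leaf list at 0.591 to 0.910 and 0.284 to 0.454. By totals the tapetum sum was 2.19 to 5.26 against 1.75 to 2.14 CPM, higher in every paps1-3 library. The leaf sum by totals was 0.874 to 1.53 against 0.186 to 0.305 CPM, and it was higher in every paps1-3 library under both scalings. Of all genes tested, 71.2% were higher in every paps1-3 library by totals. Of the 3 tapetum genes tested, LAP6 was called higher under both scalings (log2 fold changes 2.54 by TMM and 3.78 by totals). AMS and MS2 were called lower by TMM (−1.17 and −1.42) and not called by totals (0.08 and −0.13). The part of these differences in the germline results was not tested.

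In wild-type pollen the 8 genes spanned a wide range of levels, and DUO1, DAZ1 and DAZ2 were the scarcest. Per kilobase of exon, PCR11 stood at 574 ± 31.2 CPM, MAPKKK20 at 265 ± 23.6 and DAZ3 at 178 ± 8.3 (SD, n = 3). MGH3 was at 77.7 ± 7.6 and DUO3 at 7.11 ± 0.48 CPM per kilobase. DUO1 was at 2.83 ± 0.38, DAZ1 at 0.754 ± 0.068 and DAZ2 at 0.527 ± 0.047 CPM per kilobase, a level 1088 times below PCR11. In this order 0 neighbours overlapped between wild-type libraries. MGH3, a defining sperm marker, had 1074 to 1359 counts in each wild-type library.

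In paps1-3 pollen PCR11 was still the most abundant per kilobase, at 79.5 ± 20.9 CPM, but the next 3 genes lay close together. MGH3 was at 31.4 ± 7.8, DAZ3 at 27.5 ± 5.2 and MAPKKK20 at 22.3 ± 5.4 CPM per kilobase, and their libraries overlapped, so that MAPKKK20 went from rank 2 to rank 4. DUO3 (3.30 ± 0.32), DUO1 (1.24 ± 0.34), DAZ1 (0.790 ± 0.079) and DAZ2 (0.256 ± 0.198) kept their order.

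By TMM 6 of the 8 genes were called lower in paps1-3, 0 were called higher, and DAZ1 and DAZ2 did not pass. Among all genes tested 29.9% were called lower and 42.3% higher. All 8 passed the filter on low counts. The libraries of the groups did not overlap for the same 6 genes, and among all genes 31.5% lay lower in every paps1-3 library. Their median log2 fold change was −1.23, and that of all genes tested 0.37. By library totals 3 of the 8 were called lower and 1 higher, against 9.72% and 70.2% of all genes, with medians of 0.01 and 1.62. There, too, the genes called were those whose groups did not overlap, beside 10.5% of all genes lower and 71.2% higher in every paps1-3 library. MAPKKK20, PCR11 and DAZ3 were the 3 genes lower under both scalings. In whole pollen, fewer sperm cells and less RNA per sperm cell cannot be told apart.

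**Figure D2:**
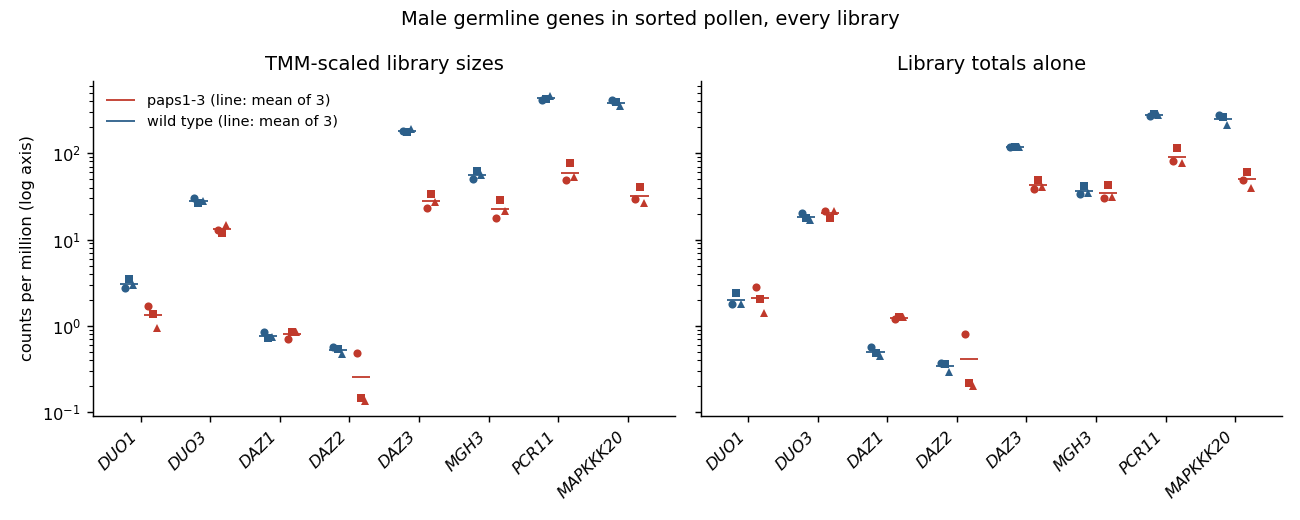
CPM of each gene in each library (circle A, square B, triangle C; line, mean of 3), on a log axis, with TMM-scaled library sizes (left) and library totals (right). DAZ3, PCR11 and MAPKKK20 lie lower in all paps1-3 libraries in both panels, whereas DUO1, DUO3 and MGH3 do so in the left panel and overlap in the right.

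DUO1, the regulator, was scarce in both groups. In the order A, B, C, the paps1-3 libraries held 105, 84 and 28 of its counts and the wild-type libraries 58, 78 and 68. On TMM-scaled sizes these were 1.71, 1.38 and 0.958 CPM against 2.74, 3.54 and 2.94. Every paps1-3 library was below every wild-type library, for a log2 fold change of −1.16 with an SE of 0.28 (edgeR, adjusted p = 0.000828). On library totals the same counts gave 2.86, 2.04 and 1.41 CPM against 1.82, 2.38 and 1.80. There the groups overlapped, with library A of paps1-3 the highest of all, and the log2 fold change was 0.09 ± 0.31 (adjusted p = 0.792). DUO1 shares 10 bases at its end with AT3G60450 on the opposite strand, and the kit does not mark strand, whereas none of the other 7 genes overlaps an annotated gene.

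DUO3, the parallel regulator, was more abundant than DUO1 and had a similar fold change. It had 787, 733 and 425 counts in paps1-3 and 643, 588 and 640 in wild type, or 12.8, 12.0 and 14.5 CPM against 30.4, 26.7 and 27.7. The groups did not overlap, and the log2 fold change was −1.11 ± 0.14 (adjusted p = 2.66e-07 by edgeR). By totals it was 0.14 ± 0.14 (adjusted p = 0.361) and the groups overlapped.

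The 3 DAZ genes went separate ways. DAZ3 had 1411, 2035 and 803 counts in paps1-3 against 3781, 3836 and 4397 in wild type, or 22.9, 33.4 and 27.5 CPM against 179, 174 and 190.3. It fell 6.48-fold (log2 fold change −2.70 ± 0.15, adjusted p = 5.31e-14 by edgeR), and by totals its log2 fold change was −1.46 (adjusted p = 8.28e-09). The wild-type libraries lay close together and far above all 3 paps1-3 libraries under either scaling.

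DAZ1, the repressor that with DAZ2 promotes germ cell division, had 44, 52 and 25 counts in paps1-3 and 18, 16 and 17 in wild type. On TMM-scaled sizes the levels were 0.715, 0.853 and 0.855 CPM against 0.851, 0.726 and 0.736, so that the groups overlapped (log2 fold change 0.07 ± 0.44, adjusted p = 0.901 by edgeR). By totals every paps1-3 library was above every wild-type library, at 1.199 to 1.263 against 0.451 to 0.564 CPM, and DAZ1 was called higher (1.302 ± 0.444, adjusted p = 0.0130), as were 70.2% of all genes. DAZ2 had 30, 9 and 4 counts in paps1-3 against 12, 12 and 11 in wild type, or 0.487, 0.148 and 0.137 CPM against 0.567, 0.544 and 0.476. Library A of paps1-3 stood among the wild-type values and B and C below them. The log2 fold change was −0.98 ± 0.61 (adjusted p = 0.151), and without library A it was −1.83 (adjusted p = 0.0172 by edgeR). These counts are too few to place DAZ2 more closely.

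MGH3 encodes a histone H3 variant found in sperm chromatin. It had 1099, 1757 and 621 counts in paps1-3 and 1074, 1359 and 1288 in wild type, or 17.9, 28.8 and 21.3 CPM against 50.8, 61.6 and 55.8. The groups did not overlap by TMM (log2 fold change −1.31 ± 0.16, adjusted p = 9.11e-08 by edgeR) and did by totals (−0.07 ± 0.15, adjusted p = 0.662). Of 2 other H3 genes listed for comparison, both were called higher under both scalings, as were 42.3% of all genes by TMM and 70.2% by totals. HTR4 (AT4G40030), which encodes the variant H3.3, rose from 2.74 ± 0.41 to 5.53 ± 1.57 CPM, and HTR1 (AT5G65360), which encodes the canonical H3.1, had 23, 43 and 23 counts in paps1-3 against 3, 3 and 6, with log2 fold changes of 1.02 and 1.75 by TMM and 2.25 and 2.97 by totals.

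PCR11 was the most abundant of the 8 in wild type. It had 2997, 4721 and 1535 counts in paps1-3 and 8660, 9361 and 10513 in wild type, or 48.7, 77.5 and 52.5 CPM against 409, 425 and 455. It fell 7.21-fold by TMM, and by totals its log2 fold change was −1.61 (adjusted p = 1.40e-08 by edgeR). MAPKKK20 made the largest change of the 8 under both scalings. It had 1790, 2503 and 778 counts in paps1-3 and 8757, 8602 and 8003 in wild type, or 29.1, 41.1 and 26.6 CPM against 414, 390.1 and 346. The decrease was 11.9-fold by TMM, and by totals its log2 fold change was −2.33 ± 0.15 (adjusted p = 1.05e-09).

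**Figure D3:**
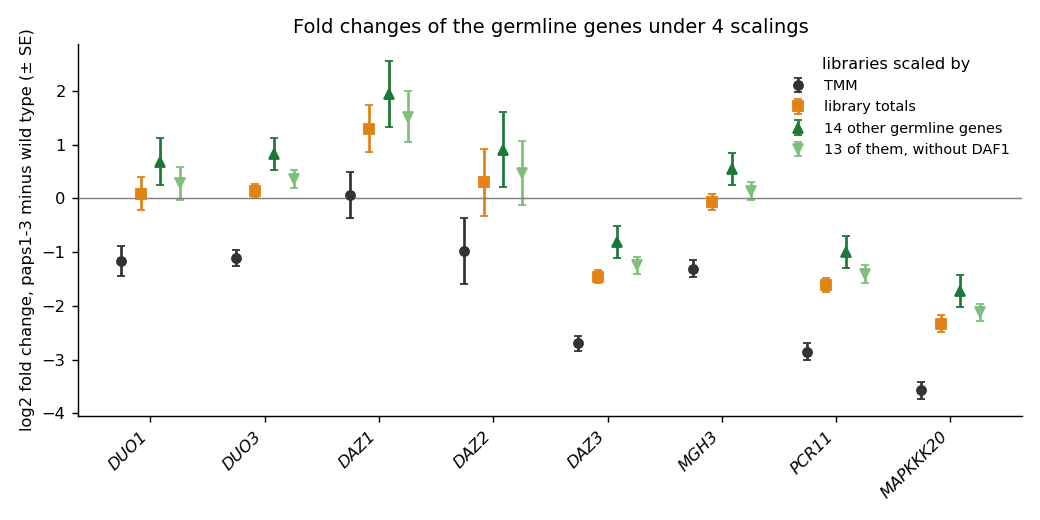
Log2 fold change of each gene, paps1-3 minus wild type, with its SE, with libraries scaled by TMM, by library totals, by the summed counts of 14 other germline genes and by 13 of these without DAF1. DAZ3, PCR11 and MAPKKK20 are below 0 under all 4 scalings, and DUO1, DUO3, DAZ2 and MGH3 lie on either side of 0.

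Ratios of genes within a library do not depend on how libraries are scaled. In each of the 15 pairs that set DAZ3, PCR11 or MAPKKK20 against one of the other 5 genes, the ratio was lower in all 3 paps1-3 libraries than in all 3 of wild type, by 2.60-fold to 12.6-fold. This grouping was made after the values were seen. Over all 28 pairs of the 8 genes, groups did not overlap in 20, and among all pairs of tested genes counted in every library this held for 69.7%, so the number of such pairs is near the background. The exact permutation p was 0.1 in each, the smallest that 3 against 3 libraries allow, and 0.14 adjusted over the 28 pairs.

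PCR11 over MAPKKK20 was at a log2 ratio of −0.02, 0.12 and 0.39 in the wild-type libraries, where the genes were about level, and at 0.74, 0.92 and 0.98 in paps1-3. Against MGH3, the log2 ratio of DAZ3 went from 1.70 ± 0.17 in wild type to 0.31 ± 0.09 in paps1-3 (SD, n = 3). MGH3 over PCR11 went from −2.94 ± 0.14 to −1.39 ± 0.08, and MGH3 over MAPKKK20 from −2.78 ± 0.22 to −0.51 ± 0.19. By contrast, DUO1 over MGH3 was −4.19 ± 0.06 in wild type and −4.08 ± 0.60 in paps1-3, DUO1 over DUO3 −3.21 ± 0.28 and −3.32 ± 0.54, and DAZ3 over PCR11 −1.25 ± 0.05 and −1.08 ± 0.14, with overlap in each. DAZ1 over DAZ3 differed most among the DAZ pairs, going from −7.88 ± 0.15 to −5.10 ± 0.17, 6.86-fold.

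**Figure D4:**
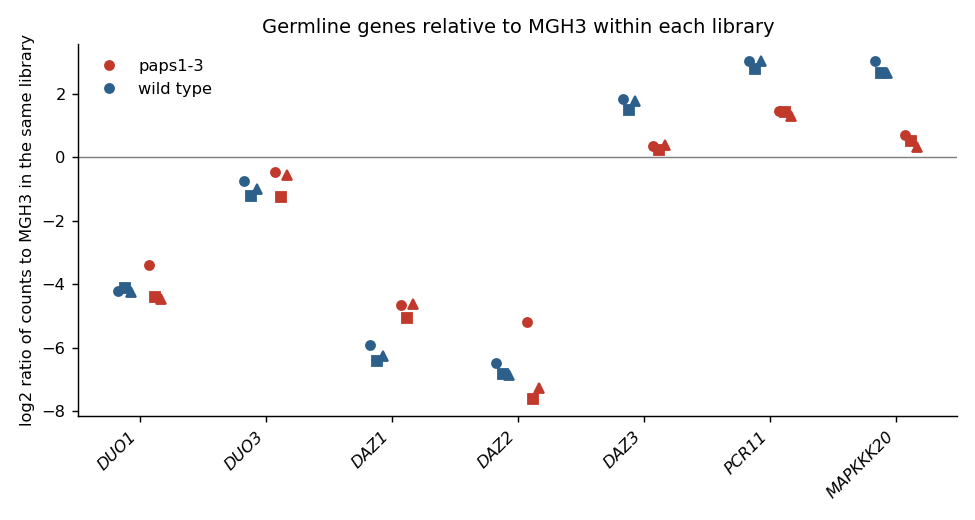
Log2 ratio of the counts of each gene to those of MGH3 in the same library (wild type blue, paps1-3 red; circle A, square B, triangle C). DAZ3, PCR11 and MAPKKK20 lie above 0 in both groups and closer to it in all 3 paps1-3 libraries, while DUO1 and DUO3 overlap between groups.

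Shares of the 8 genes' own summed counts differed for some genes and overlapped for others. MAPKKK20 made up 35.4% ± 3.0 of their summed counts in wild type and 20.4% ± 1.7 in paps1-3, and MGH3 5.18% ± 0.51 and 14.3% ± 0.8 (exact permutation p = 0.1 each, n = 3). The share of PCR11 was 39.7% ± 2.3 and 37.5% ± 1.9, and that of DAZ3 16.7% ± 0.8 and 17.7% ± 1.1, both with overlap between groups. DUO1 made up 0.284% ± 0.039 and 0.880% ± 0.339. Of all counts of 22 germline genes (the 8, 8 others known as DUO1-activated and 6 other sperm genes), the 8 took 13.6% ± 0.5 in wild type and 7.70% ± 1.18 in paps1-3 (exact permutation p = 0.1). DAF1 (AT3G62230), a DUO1-activated F-box gene, supplied 79.0% to 85.2% of these counts in paps1-3 and 78.7% to 80.6% in wild type. Without DAF1, the 8 took 66.0% ± 1.3 in wild type and 43.5% ± 3.6 in paps1-3. These shares mainly follow PCR11, MAPKKK20 and DAZ3, which made up most of the 8 genes' counts in both groups. Scaled to the 14 other germline genes, their log2 fold changes were −0.996, −1.72 and −0.81. Those of DUO1, DUO3, DAZ1, DAZ2 and MGH3 were 0.69, 0.83, 1.95, 0.91 and 0.55, of which DUO3 and DAZ1 were called higher.

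The other DUO1-activated genes were lower too by TMM. Of 8 listed, 7 had enough counts and all 7 were called lower by TMM, against 29.9% of all genes, with a median log2 fold change of −1.62. By totals 4 were lower and 1 higher, beside 9.72% and 70.2% of all genes. DAN1 (AT3G04620), the 1 higher by totals (0.32 ± 0.11), was called lower by TMM (−0.92 ± 0.13). DAA1 (AT1G64110), an ATPase gene, had 34.2, 28.5 and 29.1 CPM in wild type and 5.18, 5.50 and 4.59 in paps1-3 (log2 fold change −2.58 ± 0.16). DAW1 (AT4G35560), which encodes a WD40 protein, was at −2.17 ± 0.16, DAF1 at −1.87 ± 0.18 and the peptide transporter gene OPT8 (AT5G53520) at −1.62 ± 0.16. These 4 were also lower by totals, where their log2 fold changes were −1.33, −0.91, −0.63 and −0.38. GEX2, needed for gamete attachment, had 3, 0 and 0 counts in paps1-3 and 1, 1 and 0 in wild type and was not tested. Of 6 other sperm genes 5 were tested and 4 were called lower by TMM, against 29.9% of all genes. By totals 2 were lower and 1 higher, beside 9.72% and 70.2%. The 1 higher was TET11 (AT1G18520), at −0.002 ± 0.183 by TMM, where it was not called, and 1.234 ± 0.185 by totals. TET12 (AT5G23030), a tetraspanin gene, had 12.7, 12.7 and 12.2 CPM in wild type and 1.66, 2.51 and 0.958 in paps1-3, and its log2 fold change was −2.82 ± 0.24 by TMM and −1.58 ± 0.26 by totals. For GEX1 (AT5G55490) the log2 fold changes were −1.75 ± 0.14 with TMM and −0.49 with totals. TET12 and GEX1 were called lower under either scaling. GEX3 (AT5G16020), a plasma membrane protein, was at −1.45 ± 0.18 by TMM and SSP (AT2G17090), a kinase-like gene whose message sperm deliver to the embryo, at −0.91 ± 0.18, both called by TMM and not by totals.

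Genes upstream of DUO1 or acting in the same division moved both ways. ARID1 (AT2G17410), which promotes DUO1 transcription, was at 15.5, 14.7 and 15.2 CPM in wild type and 11.1, 11.9 and 9.92 in paps1-3. Its log2 fold change was −0.46 ± 0.15 by TMM (adjusted p = 0.00890 by edgeR) and 0.79 by totals (adjusted p = 0.000118), called in opposite directions. The F-box gene FBL17 (AT3G54650), which drives germ cell division by removing inhibitors of cyclin-dependent kinases, was higher under both, at 0.42 ± 0.18 and 1.66. RBR1 (AT3G12280), the retinoblastoma homologue, fell by 1.34 ± 0.14 on the log2 scale by TMM, and was not called by totals (−0.09). The kinase gene CDKA;1 (AT3G48750) had 28, 39 and 7 counts in paps1-3 and 0, 5 and 0 in wild type, and its log2 fold change rests on those few counts. Of the 5 genes of this list, 2 were higher, 2 lower and 1 not called by TMM, and 4 were higher and 0 lower by totals. Beside 42.3% higher and 29.9% lower over all genes by TMM, and 70.2% and 9.72% by totals, these counts are near the background.

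The co-repressors that DAZ1 and DAZ2 recruit were higher or not called. Of 5 TOPLESS genes 3 were called higher by TMM and all 5 by totals, beside 42.3% and 70.2% of all genes, so these counts are near the background. TPL (AT1G15750) was at 22.8, 25.5 and 24.9 CPM in wild type and 37.9, 50.2 and 49.4 in paps1-3, a log2 fold change of 0.91 ± 0.14 (adjusted p = 4.47e-06 by edgeR). TPR4 (AT3G15880) was at 0.46 ± 0.13 and TPR3 (AT5G27030) at 0.35 ± 0.14, beside a median of 0.37 over all genes. The TOPLESS genes are known as broadly expressed.

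MYB genes that hold a miR159 site, as DUO1 does, divided. Of 7 listed, 4 had enough counts, of which 1 was higher and 2 lower by TMM, beside 42.3% and 29.9% of all genes. By totals 2 were higher and 1 lower, beside 70.2% and 9.72%. MYB120 (AT5G55020) was at −0.07 ± 0.14 by TMM, where it was not called, and at 1.19 ± 0.14 by totals, where it was called higher. MYB33 (AT5G06100), known from anthers, had 80, 73 and 40 counts in paps1-3 against 4, 1 and 3 in wild type, a log2 fold change of 3.38 ± 0.56 (adjusted p = 1.23e-05 by edgeR) and 4.60 by totals. MYB101 (AT2G32460) and MYB97 (AT4G26930), which act in the pollen tube, were at −1.39 ± 0.13 and −2.13 ± 0.13 by TMM. MYB101 did not pass by totals (−0.15), and MYB97 did (−0.87). Markers of the vegetative cell also went both ways, with 4 of 9 called higher and 4 lower by TMM (42.3% and 29.9% of all genes) and 5 and 4 by totals (70.2% and 9.72%). Added over the 9 markers, wild-type libraries held 25990 to 32600 CPM by TMM, and those of paps1-3 held 4834 to 4934. With totals the sums were 17490 to 19990 against 7254 to 8111 CPM. LRX10, LRX11 and ANX2 made up most of the wild-type sum, with means of 18240, 6312 and 4003 CPM by TMM. Their log2 fold changes were −3.03, −3.72 and −2.18, whereas AHA6, TIP1;3, AGL66 and AGL65, the 4 called higher, were at 2.90, 2.71, 1.17 and 0.38. The sum thus mainly follows a few abundant genes, and its part in the germline results was not tested.

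**Figure D5:**
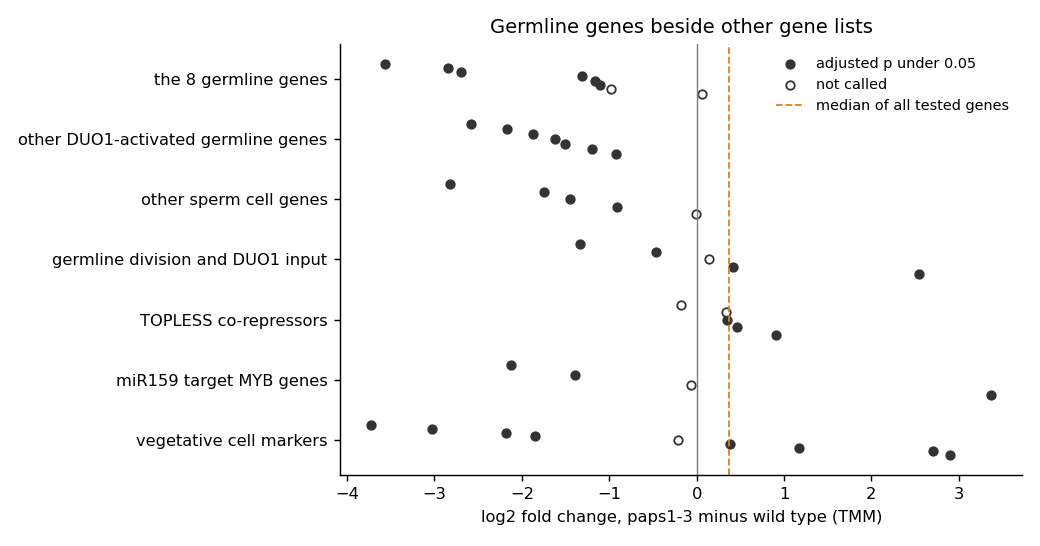
Log2 fold change (TMM) of every tested gene of 7 lists, filled where the adjusted p was under 0.05 and open where it was not, with the median of all tested genes (0.37) as a dashed line. The 8 germline genes, the other DUO1-activated genes and the sperm genes lie mostly below 0, and the TOPLESS genes lie between −0.18 and 0.91.

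By pattern over the 6 libraries, the genes most like DUO1 among 4075 with a mean log2 CPM of at least 3 were AT5G51740, APR3 (AT4G21990) and PFA-DSP5 (AT5G16480). Their log2 levels, with 0.5 CPM added and each relative to the wild-type mean, lay at a root mean square distance of 0.081, 0.099 and 0.129 from those of DUO1. Their log2 fold changes were −0.97, −0.97 and −0.92, against −1.16 for DUO1. At a mean of 2.21 CPM, DUO1 lies below the minimum set for the other genes, and the added 0.5 lessens its change more than theirs. The genes most like MAPKKK20 were AT1G60740, AT1G80470 and PRL (AT4G02060), at 0.099, 0.103 and 0.127, with log2 fold changes of −3.53, −3.66 and −3.81. With only 2 groups, such likeness mostly reflects a similar fold change.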

How the data were processed

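The authors deposited unnormalised read counts for each gene, from TopHat2 and HTSeq on TAIR10 per the submitters' processing notes; nothing used here gives versions or options. Total RNA was amplified with the Ovation RNA-seq system v2, per the labels' protocols. Summary categories that name no gene made up 8.84% to 15.3% of a library and were left out. Counts were tested with edgeR 4.0.16 in R 4.3.3 (quasi-likelihood, robust, TMM, genotype as the only term, filterByExpr with minimum count 10 and total 15), and adjusted over 14273 genes. The step was tested on simulated data in which a small part of the genes changed, as many up as down. That setting differs from these libraries, so it does not bear on the choice of scaling. Alternatives were library totals, DESeq2 1.42.0 size factors, the DESeq2 test, other filters, the letter as a block and each library left out. Scaling to other germline genes and leaving out DAF1 were chosen after seeing the data. Libraries of a group differed beyond sampling noise (chi-square per degree of freedom at least 15.3). The 8 genes, the gene lists and the rule for names (all 8; in each list up to 4 called genes with the smallest p) were chosen with earlier results of these data known. Genes named outside that rule, such as DAN1, MYB120, TET11 and markers of the tapetum and vegetative cell, were named after the values were seen. Symbols, exon lengths and sequences came from RefSeq's TAIR10.1, where all 8 genes matched.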

Additional observations from a re-analysis of the deposited data

Results flagged for a closer look

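Reads placed at several positions, which belong to no gene and enter no comparison above, were a larger part of all counted reads in paps1-3 than in the wild-type control libraries, at 9.84% ± 1.87 against 5.59% ± 0.48 (n = 3 each, exact permutation p = 0.1, the smallest possible). Their part in the germline results was not tested.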

How the results depend on the processing

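Over 14 alternatives, 90 of 111 fold changes of the 8 genes kept their direction and side of the threshold, and DAZ2 had none with a filter of 1 CPM in 3 libraries. Most alternatives kept TMM or similar size factors, so this tally says little about the scaling. By library totals only 3 of the 8 values were kept, and with either germline scaling also 3. DAZ3, PCR11 and MAPKKK20 were called lower under all 14, between −2.86 and −0.81, −3.11 and −0.996, and −3.80 and −1.72. They had the largest decreases of the 8 by TMM, and another scaling shifts all genes by a similar amount. That their sign held where others turned thus follows largely from the size of their decreases. The number of genes called lower was 6, but 3 by library totals and 3 when scaled to 14 other germline genes, with or without DAF1. The number called higher was 0, but 1 by totals and 2 with either germline scaling. The share of all genes called was not counted under the germline scalings, so those numbers cannot be set against a background. Signs turned by totals for DUO1 (0.092), DUO3 (0.14) and DAZ2 (0.30). Scaled to the germline genes they turned for DUO1 (0.69), DUO3 (0.83, adjusted p = 0.00901 by edgeR), DAZ2 (0.91) and MGH3 (0.55), and without DAF1 for DUO1 (0.28), DUO3 (0.36, adjusted p = 0.0452), DAZ2 (0.48) and MGH3 (0.14); the cause of these turns is the scaling itself. DAZ1, near 0 in the reported test, was at −0.021 with no filter and between −0.045 and 0.171 when a library was left out. Without library A of paps1-3, 7 of the 8 genes were called lower, DAZ2 joining them, beside 4272 of all 14029 genes tested. Same-lettered libraries correlated at 0.26, 0.08 and 0.09 in their deviations from the group means, so the letters were not taken as pairs. With the replicate block 6 of the 8 genes were called lower, beside 4426 of all 14273 genes tested. The share of the 8 genes in germline counts, which mainly follows PCR11, MAPKKK20 and DAZ3, was lower in paps1-3 whichever library was left out. Depth limits DAZ1 and DAZ2, with fewer than 60 counts a library.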
